A study of Mus musculus with 6 samples.

Results

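Usage of immunoglobulin variable segments was described in whole bone marrow of mice with and without nuclear myosin 1 (NM1). The segments were chosen by a rule on their read counts: every gene whose symbol starts with Ighv (heavy chain) or Igkv (kappa light chain) and whose counts, summed over the 6 libraries, reached 40. This gave 157 of the 345 listed segments, among 46603 genes in each file, namely 78 of 185 Ighv and 79 of 160 Igkv segments. The study compared 3 NM1 KO mice with 3 NM1 WT mice, all C57/Bl6 animals aged 8 months, with RNA sequencing of 1 library per mouse. NM1 is the nuclear form of the motor protein made from Myo1c. Marrow was spun out of the femurs and tibiae of a single animal and was not sorted, and no sex is given in the labels. Since the rule used the counts themselves, a segment could reach the minimum through 1 library alone, so the levels that chose the segments are given as a description.

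Antibody genes are assembled in developing B cells of the marrow, where the Rag1 and Rag2 recombinase joins a variable (V) segment to D and J segments in the heavy chain locus and a V to a J segment in a light chain locus. The V segment encodes most of the antigen-binding domain, and a B cell as a rule makes RNA from 1 productive heavy chain and 1 productive light chain gene. All descendants of a cell carry the same joined segments. Plasma cells, the antibody-secreting end stage, also live in the marrow and hold far more immunoglobulin RNA per cell than other B lineage cells. In whole marrow, more cells that use a segment and more RNA per such cell cannot be told apart, and which heavy chain was paired with which light chain is not measured.

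The segments that led a library are shown first by the end of their V exon, the end at which the segment is joined. Each run is the last 90 coding bases of exon 2, read 5′ to 3′ from the GENCODE M21 transcripts (build GRCm38). Lower case marks the framework and capitals run from the conserved cysteine codon TGT to the end of the segment, the part that starts the third complementarity-determining loop and abuts the joining site.
Ighv11-2: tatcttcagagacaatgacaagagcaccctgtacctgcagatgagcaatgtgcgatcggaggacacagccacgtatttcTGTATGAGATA
Ighv1-69: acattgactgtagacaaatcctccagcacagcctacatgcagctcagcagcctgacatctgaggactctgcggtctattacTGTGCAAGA
Ighv1-47: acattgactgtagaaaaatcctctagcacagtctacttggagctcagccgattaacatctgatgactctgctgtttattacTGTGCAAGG
Ighv7-1: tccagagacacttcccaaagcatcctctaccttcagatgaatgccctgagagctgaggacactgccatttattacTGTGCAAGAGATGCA
Ighv5-4: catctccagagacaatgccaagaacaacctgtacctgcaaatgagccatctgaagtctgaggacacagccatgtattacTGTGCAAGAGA
Igkv14-126: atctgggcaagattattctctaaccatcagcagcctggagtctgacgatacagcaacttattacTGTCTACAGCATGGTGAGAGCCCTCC
Igkv3-2: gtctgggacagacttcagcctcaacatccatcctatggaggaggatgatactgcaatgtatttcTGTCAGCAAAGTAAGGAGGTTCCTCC
Igkv2-109: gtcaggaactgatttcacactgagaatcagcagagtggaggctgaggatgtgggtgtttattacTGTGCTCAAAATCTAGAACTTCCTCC
Igkv9-120: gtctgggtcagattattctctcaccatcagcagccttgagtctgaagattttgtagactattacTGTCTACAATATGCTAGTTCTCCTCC
Igkv6-32: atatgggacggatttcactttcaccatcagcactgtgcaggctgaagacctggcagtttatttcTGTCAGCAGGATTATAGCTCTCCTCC
The heavy chain stretches lie on the minus strand of chromosome 12, with Ighv11-2 at chr12:114048241-114048330, Ighv1-69 at chr12:115623161-115623250, Ighv1-47 at chr12:114991108-114991197, Ighv7-1 at chr12:113896408-113896497 and Ighv5-4 at chr12:113597446-113597535. On chromosome 6, Igkv14-126 at chr6:67896553-67896642, Igkv3-2 at chr6:70698978-70699067, Igkv2-109 at chr6:68303069-68303158 and Igkv9-120 at chr6:68050367-68050456 read on the plus strand, and Igkv6-32 at chr6:70074024-70074113 on the minus strand. The 5 light chain segments each have 26 capital bases, because the kappa V exon itself encodes most of that loop. The heavy chain segments have 9 to 15, since D and J segments add the rest. Ighv1-69 ends TGTGCAAGA and Ighv1-47 ends TGTGCAAGG. Promoters and recombination signals were not used here.

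How far a count can be assigned to 1 of these segments differs among them. Over the whole V exon, Ighv11-2 was 98.7% identical to Ighv11-1 and Ighv1-69 was 97.4% identical to Ighv1-59. Igkv9-120 was 96.0% identical to Igkv9-124 and Ighv5-4 95.4% identical to Ighv5-6. In contrast, every 50-base stretch of Ighv1-47, Ighv7-1, Igkv14-126 and Igkv6-32 was unique among the transcripts of the Ighv, Igkv and Iglv genes. The share of unique 50-base stretches was 59.6% in Ighv1-69, 61.4% in Ighv11-2, 74.7% in Igkv9-120, 78.7% in Igkv3-2, 79.4% in Igkv2-109 and 80.1% in Ighv5-4. Counts of the first group are therefore less certain than those of the second, since the handling of reads shared between copies is not given in the sources used here.

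The members span the whole of both loci. The Ighv members lie between 113588267 and 116000461 on chromosome 12, all on the minus strand. The Igkv members lie between 67609713 and 70704177 on chromosome 6, with 30 on the plus strand, the strand of the Igkj segments, and 49 on the minus strand. All but 3 are annotated as functional V genes. The exceptions are the pseudogenes Ighv1-41, Igkv4-73 and Igkv4-77. The segments below the minimum held 1.82% of the Ighv and 0.507% of the Igkv counts. They included 36 functional Ighv and 23 functional Igkv genes, of which 9 and 1 had no count in any library. Just inside the minimum were Ighv1-31, Ighv8-6 and Igkv8-18 with 40 counts each, and just outside were Igkv19-93 with 39, Igkv10-95 with 38 and Ighv1-33 with 36.

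Library totals ranged from 15145052 to 22618802 counts, and each NM1 KO library was deeper than each NM1 WT library. Low counts were nearly all even, with 2417 genes at a count of 2 and 6 genes at a count of 1 in NM1 KO 1, so both mates of a pair appear to have been counted. Intervals below were therefore taken over read pairs. They are 95% Clopper-Pearson intervals and reflect counting error alone, as no molecular identifiers were used. Myo1c, the targeted gene, lay at 59.1 to 73.8 CPM (counts scaled to library size, with TMM factors) in NM1 KO and 89.8 to 114.5 CPM in NM1 WT, and a count over the whole gene does not isolate the NM1 form. The Y-linked genes Ddx3y, Uty, Kdm5d and Eif2s3y together passed 1 CPM (here over the library total) in NM1 KO 1, NM1 KO 2 and NM1 WT 2. They did not pass it in the other libraries, and this sets the Y-linked state used below. B lineage RNA was present in all 6 libraries. None of the 14 plasma cell, 13 pro-B and pre-B cell or 12 mature B cell markers was at 0 in any of them. The lowest was the plasma cell marker Tnfrsf17, close to 0 at 0.174 CPM in NM1 KO 1.

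Together the 2 loci made up 0.0573% to 0.151% of a library. The Ighv members summed to 148, 190 and 514 CPM in NM1 KO 1 to 3 and to 239, 265 and 196 CPM in NM1 WT 1 to 3. NM1 KO 3 stood apart with the highest sum, and the other NM1 KO libraries held the lowest 2 sums. The Igkv members summed to 416, 577 and 976 CPM in NM1 KO and to 797, 426 and 596 CPM in NM1 WT, again with NM1 KO 3 highest and with overlap between the genotypes. Behind the shares below stand 2988 to 10961 Ighv counts and 7350 to 20819 Igkv counts per library. A usage share is a segment's percentage of all member counts of its locus in a library. It was not corrected for length. Exon lengths ran from 329 to 461 bases in Ighv, where Ighv11-2 is the longest member, and from 338 to 404 in Igkv.

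In the heavy chain locus, each library was led by 1 segment that held between 13.8% and 25.1% of the counts, and 5 different segments took this place. In NM1 KO 1 it was Ighv11-2 with 15.1% (interval 13.4% to 16.8%), followed by Ighv13-2 with 13.2% (11.6% to 14.9%) and Ighv12-3 with 10.9%. Per base of exon, Ighv13-2 (359 bases) would lead NM1 KO 1 ahead of Ighv11-2 (461 bases). Ighv1-69 led NM1 KO 2 with 17.3% (15.7% to 19.1%) and also NM1 WT 1 with 25.1% (23.1% to 27.2%), so the only heavy chain leader shared by a pair of libraries was shared across the genotypes. Ighv1-47 led NM1 KO 3 with 24.1% (23.0% to 25.3%). Ighv7-1 led NM1 WT 2 with 13.8% (12.4% to 15.3%) and Ighv5-4 led NM1 WT 3 with 25.1% (22.9% to 27.4%).

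Some of these leaders were nearly private to their library. Ighv1-47 had 2647 counts, or 124 CPM, in NM1 KO 3. Elsewhere its share was 0.352% in NM1 KO 1, 0.454% in NM1 WT 1 and 0.134% in NM1 WT 3. It had no count in NM1 KO 2 and NM1 WT 2, which allows shares of up to 0.145% and 0.131% by a limit of 3 read pairs (0.179% and 0.161% by the upper ends of the intervals). The next highest Ighv1-47 level was 1.09 CPM, in NM1 WT 1. Ighv5-4 held 0.352%, 0.630% and 0.630% in NM1 KO 1 to 3 and 0.170% and 0.219% in NM1 WT 1 and 2, far under its 25.1% in NM1 WT 3. Ighv1-69 was high in 2 libraries, and held 1.06% in NM1 KO 1, 1.62% in NM1 KO 3, 0.393% in NM1 WT 2 and 1.00% in NM1 WT 3. Ighv7-1 reached 2.21% in NM1 WT 3 and lay between 0.388% and 0.876% in the other libraries outside NM1 WT 2.

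Ighv11-2 behaved differently: it led 1 library but was abundant in all. Its share was 15.1%, 5.52% and 5.80% in NM1 KO 1 to 3 and 4.03%, 8.24% and 5.19% in NM1 WT 1 to 3, with ranges that overlapped. By counts not corrected for length, it was among the 3 highest segments of NM1 KO 1, NM1 KO 3, NM1 WT 2 and NM1 WT 3. Ighv11-2 joined with Igkv14-126, and Ighv12-3 joined with Igkv4-91, are known from antibodies of B-1a cells against phosphatidylcholine. Igkv14-126 was the most used kappa segment by mean share, with 18.4%, 5.83% and 7.66% in NM1 KO and 4.81%, 17.2% and 6.48% in NM1 WT. It too was among the first 3 in all libraries but NM1 KO 2. Ighv12-3 reached 10.9% (9.49% to 12.5%) in NM1 KO 1 and lay at or under 0.227% elsewhere. Igkv4-91, looked up after these values were seen, held only 0.251% in NM1 KO 1 and 0.170% to 0.506% over all libraries.

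In the kappa locus, the leading segment held 17.2% to 41.9% of the counts. Igkv14-126 led NM1 KO 1 with 18.4% (17.3% to 19.5%) and NM1 WT 2 with 17.2% (16.0% to 18.5%), so here too the shared leader crossed the genotypes. Second place was taken by Igkv16-104 in NM1 KO 1 with 14.4% (13.4% to 15.4%) and by Igkv15-103 in NM1 WT 2 with 15.4% (14.2% to 16.6%). Igkv3-2 led NM1 KO 2 with 33.9% (32.7% to 35.1%). Igkv2-109 led NM1 KO 3 with 19.5% (18.8% to 20.3%), followed by Igkv5-39 with 11.0% (10.4% to 11.6%). Igkv9-120 led NM1 WT 1 with 41.9% (40.7% to 43.2%), the highest share of any segment in any library, and Igkv6-32 led NM1 WT 3 with 37.4% (36.0% to 38.8%).

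The kappa leaders also differed in how far they appeared elsewhere. Igkv2-109 was the most private, at 191 CPM in NM1 KO 3 and between 0.348 and 1.75 CPM in the other 5 libraries. Igkv9-120 held 2.23%, 6.97% and 1.27% in NM1 KO 1 to 3 and 1.50% and 0.616% in NM1 WT 2 and 3. Igkv3-2 held 6.27% in NM1 KO 1, 1.44% in NM1 KO 3 and 0.80%, 3.51% and 1.14% in NM1 WT 1 to 3. Igkv6-32 held 6.55% in NM1 KO 1 and 0.527% to 1.19% in the remaining libraries outside NM1 WT 3. All 4 were thus detected in every library, at shares that differed between libraries well beyond their counting intervals. Igkv16-104 and Igkv15-103, high in 1 library each, did not pass 1.41% and 1.48% in any other.

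**Figure D1:**
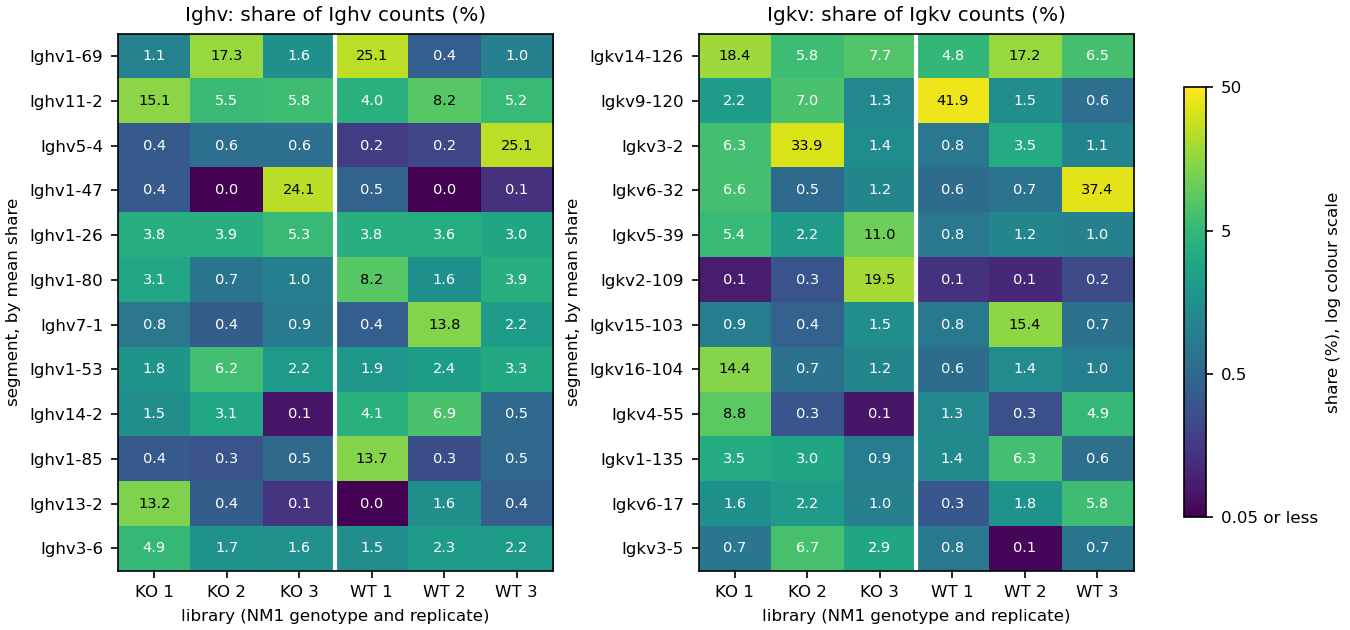
Usage share, in percent of the member counts of the locus, of the 12 Ighv (left) and 12 Igkv (right) segments of highest mean share, by library, with a log colour scale and the white line between NM1 KO and NM1 WT. Most rows have 1 bright cell, such as Igkv9-120 in NM1 WT 1 (41.9%), while Ighv1-26, Ighv11-2 and Igkv14-126 are bright across the row.

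Concentration in 1 library was common over the whole set. For 48 of the 157 segments (23 Ighv and 25 Igkv), more than 50% of the share summed over the libraries came from 1 library, and for 14 segments more than 80%. Among the 103 segments with at least 200 counts, where counting error is smaller, 36 passed 50%. Both minimums are on summed counts, which 1 library alone can supply, as for Ighv7-4 with 307 of its 309 counts in NM1 KO 3. The numbers of concentrated segments are therefore a description of the chosen set, and other genes were not counted in this way. The 14 included Ighv7-4 (97.7% of its summed share in NM1 KO 3), Ighv1-85 (87.4% in NM1 WT 1), Ighv13-2 (84.1% in NM1 KO 1) and Igkv4-53 (86.8% in NM1 WT 1), which were named after their values were seen. Each library was the source for some of the 48. The Ighv segments were spread as 2, 4 and 7 over NM1 KO 1 to 3 and 3, 3 and 4 over NM1 WT 1 to 3, and the Igkv segments as 3, 6 and 4 and as 5, 5 and 2.

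Even so, most segments were present in every mouse. Of the 157, 124 had counts in all 6 libraries, and 5 (all Ighv) were at 0 in 3 or more. In 17 segments (8 Ighv, 9 Igkv) the share passed 10% in some library. The coefficient of variation (CV) of the share over the 6 libraries had a median of 84.5% in Ighv and 90.5% in Igkv. On the CPM scale, the 103 members with a mean of 1 to 10 CPM had a median CV of 91.3%. The 4466 other tested genes of that level had a median of 36.1%. These sets were not chosen alike. Members needed a summed count that 1 library can supply, and the other genes had to pass the low-count filter of the test.

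A few abundant segments were close to even, and these were picked out after their values were seen. Ighv1-26 held 3.82%, 3.95% and 5.31% in NM1 KO and 3.78%, 3.58% and 3.01% in NM1 WT, the lowest CV of any Ighv segment at 19.5%. Its share was higher in each NM1 KO library than in every NM1 WT library, by as little as 3.82% in NM1 KO 1 against 3.78% in NM1 WT 1, while its CPM overlapped. Its intervals, such as 2.96% to 4.84% in NM1 KO 1 and 2.21% to 4.01% in NM1 WT 3, overlapped for most pairs of libraries. Igkv1-117 had the lowest CV of the Igkv segments, 17.0%, around a mean share of 1.21%. Ighv1-53 was intermediate, at 6.18% in NM1 KO 2 and 1.79% to 3.35% elsewhere. Ighv1-80 ranged from 0.727% in NM1 KO 2 to 8.21% in NM1 WT 1.

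Segments are grouped by sequence into families, and members came from 14 of 16 Ighv and 16 of 20 Igkv families. The large family Ighv1, with 40 members, held a mean of 51.1% of Ighv counts. Its share was 31.9%, 65.3% and 59.1% in NM1 KO and 74.7%, 34.5% and 40.9% in NM1 WT. The 2 libraries led by Ighv1-69 had the highest Ighv1 shares. Ighv5 followed with a mean of 10.04%, from 2.84% in NM1 WT 1 to 31.5% in NM1 WT 3, the library led by Ighv5-4.

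Among the kappa families, Igkv6 had the highest mean share, 14.6%, and the 22-member Igkv4 ranged only from 7.47% to 18.3%. In Igkv3 the genotypes did not overlap: its share was 9.78%, 45.4% and 15.1% in NM1 KO and 2.79%, 5.32% and 5.29% in NM1 WT. Igkv5 was likewise higher in each NM1 KO library (6.69%, 7.32% and 16.6% against 2.56%, 4.54% and 5.01%). Igkv8, Igkv10 and Igkv17 were lower in each NM1 KO library, with Igkv10 at 1.81% to 1.99% in NM1 KO and 3.09% to 3.93% in NM1 WT. These are 5 of 16 kappa families and none of the heavy chain families, and they are given as a description. On the CPM scale, 10.8% of all tested genes were higher in each NM1 KO library than in every NM1 WT library and 9.75% were lower. The family shares are not independent, because a library with 33.9% of its counts in Igkv3-2 has less left for every other family.

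Order along the locus matters for recombination, since far segments reach the joining site only when the locus contracts, a step for which Pax5, Yy1 and Ezh2 are known. The proximal part was taken as the 92 of 185 listed Ighv segments nearest to D and J, and as the 80 of 160 listed Igkv segments nearest to J. Proximal Ighv segments held 69.9%, 35.2% and 39.7% of the counts in NM1 KO and 28.9%, 64.6% and 64.5% in NM1 WT. Proximal Igkv segments held 48.3%, 73.8% and 53.7% in NM1 KO and 37.7%, 38.1% and 77.3% in NM1 WT. Both measures covered a wide range within each genotype. The leading segment counts in these shares: the proximal Ighv share was 64.5% to 69.9% in the libraries led by Ighv11-2, Ighv7-1 or Ighv5-4, which lie in the proximal part, and 28.9% to 39.7% in those led by Ighv1-69 or Ighv1-47, which do not. Likewise the proximal Igkv share was 73.8% and 77.3% in the libraries led by Igkv3-2 (number 2 from J) and Igkv6-32 (number 33), and 37.7% to 53.7% in the others.

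Kappa segments on the plus strand join by deletion and those on the minus strand by inversion of the intervening DNA. Plus-strand segments held 26.4% of Igkv counts in NM1 WT 3, the library led by the minus-strand segment Igkv6-32, and 56.6% to 70.0% in the other 5. The means were 61.2% ± 7.68 (SD, n = 3) in NM1 KO and 48.6% ± 19.2 (SD, n = 3) in NM1 WT, with overlap between the genotypes.

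**Figure D2:**
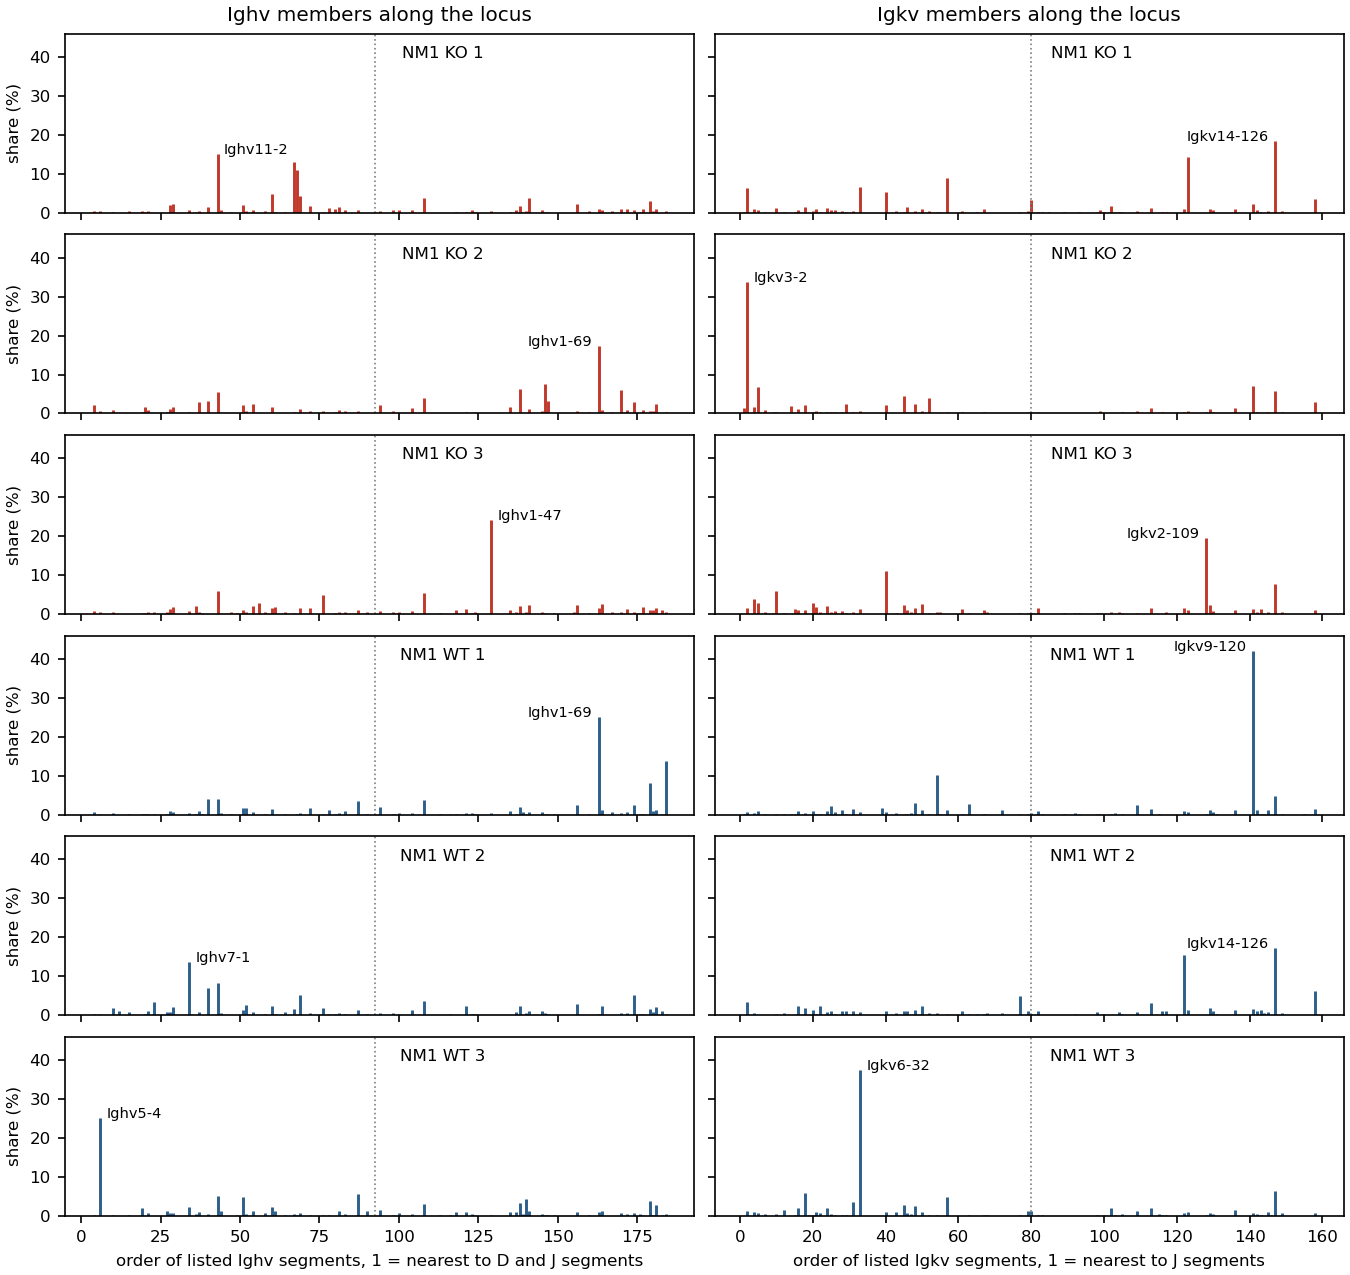
Usage share (%) of each Ighv member (left) and Igkv member (right) in the 6 libraries, by the order of all listed segments from the D and J end, with NM1 KO in red, NM1 WT in blue and the dotted line at the border of the proximal part. The tallest line of each panel carries its name, and it stands at a different place in most libraries, from Ighv5-4 (number 6) to Ighv1-69 (number 163) in the heavy chain locus.

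Whole usage profiles did not group by genotype. The Bray-Curtis dissimilarity of 2 libraries is 0% when all shares are equal and 100% when no segment is shared. For Ighv it ranged over 53.4% to 56.7% within NM1 KO, 53.6% to 57.6% within NM1 WT and 40.8% to 59.9% between the genotypes. The lowest value joined NM1 KO 2 and NM1 WT 1, both led by Ighv1-69. For Igkv it was 54.8% to 60.0% within NM1 KO, 60.8% to 66.7% within NM1 WT and 47.1% to 67.2% between the genotypes. The most alike pair was NM1 KO 1 and NM1 WT 2, both led by Igkv14-126. The ranges within a genotype thus lay inside the range between genotypes for both loci. These values are a description and were not tested.

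Dominance was summarised per library by the effective number of segments, the inverse of the summed squared shares, which equals the number of segments when all are used equally. For Ighv it was 15.4, 17.5 and 13.3 in NM1 KO and 10.1, 21.7 and 12.2 in NM1 WT. For Igkv it was 12.6, 7.35 and 14.6 in NM1 KO and 5.15, 14.7 and 6.40 in NM1 WT. Usage was thus far from even in every library, since 69 to 77 Ighv and 73 to 79 Igkv members were detected in each. In NM1 WT 1, 4 Ighv segments or 2 Igkv segments were enough to reach 50% of the counts, and in the other libraries it took 6 to 9 and 4 to 6.

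Library summaries differed between the genotypes by less than the spread between mice. NM1 KO libraries had an effective number of 15.4 ± 2.13 Ighv segments and NM1 WT libraries of 14.7 ± 6.17 (SD, n = 3 each; two-sided exact permutation test, p = 0.9). For Igkv it was 11.5 ± 3.74 and 8.75 ± 5.18 (exact p = 0.5). The leading segment held 18.9% ± 4.73 and 21.3% ± 6.54 of Ighv counts (exact p = 0.8), and 23.9% ± 8.63 and 32.2% ± 13.2 of Igkv counts (exact p = 0.4). The spread among the 3 mice of a genotype was as large as these differences in all 4 cases or larger.

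The proximal share was just as variable among mice. For Ighv the proximal share averaged 48.3% ± 18.9 in NM1 KO against 52.7% ± 20.6 in NM1 WT (exact p = 1), and 58.6% ± 13.4 and 51.0% ± 22.7 for Igkv (exact p = 0.6). With only the nearest 1 in 3 of the listed segments counted as proximal, the difference (NM1 KO minus NM1 WT) moved from -4.43 to -11.1 percentage points for Ighv (exact permutation p = 0.4) and from 7.57 to 12.0 for Igkv (p = 0.5). The summed level, given as a description, was 7.93 ± 0.95 and 7.86 ± 0.222 log2 CPM for Ighv, and 9.27 ± 0.622 and 9.20 ± 0.453 log2 CPM for Igkv. The 3 pseudogene members together held 0.270% ± 0.122 and 0.256% ± 0.123 of the counts (exact p = 0.7). With 3 mice against 3 the smallest two-sided p is 0.1, so none of these comparisons could pass 0.05, and adjusted over all 9 computed (Benjamini-Hochberg) each was 1. Without NM1 KO 3 the difference in summed Ighv level was -0.46 on the log2 scale in place of 0.07.

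**Figure D3:**
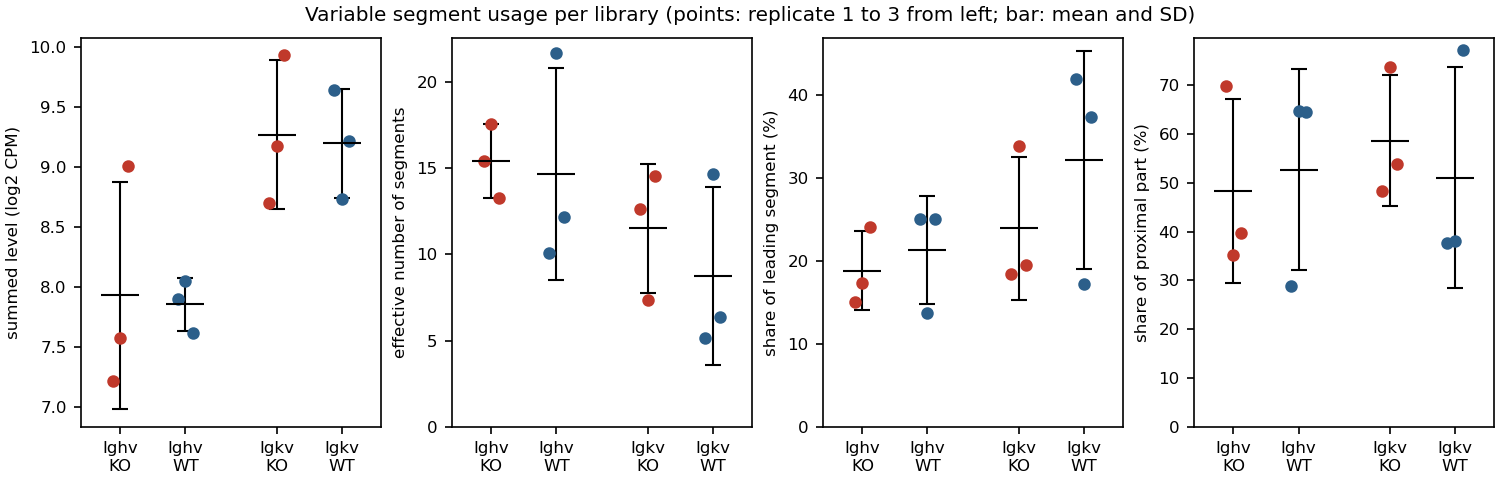
Per-library summed level (log2 CPM), effective number of segments, share of the leading segment (%) and share of the proximal part (%) for Ighv and Igkv, with NM1 KO in red, NM1 WT in blue, points for the 3 mice, and bars for the mean and SD. The genotypes overlap in every panel, and NM1 KO 3 has the highest summed level of both loci (9.01 and 9.93 log2 CPM).

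For single segments, edgeR's quasi-likelihood test was run over 15069 genes. It included 137 members (63 Ighv, 74 Igkv). The other 20 had too few counts in too many libraries, among them Ighv12-3 despite its 10.9% in NM1 KO 1. At an adjusted p under 0.05, 0 of the 137 members passed, beside 0.776% of all tested genes. At an unadjusted p under 0.05 there were 33 members (18 higher and 15 lower in NM1 KO), or 24.1%, beside 16.8% of all tested genes. DESeq2 on the same genes called 10 of the 137 members (14 had no adjusted p), beside 774 of all 15069 genes. With limma-voom it was 0 members, beside 37 of all 15069 genes. The 10 were Ighv1-74, Ighv1-78, Ighv1-80, Ighv1-9, Igkv10-94, Igkv13-85, Igkv3-10, Igkv4-59, Igkv5-39 and Igkv8-30.

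The tested members had a median log2 fold change (NM1 KO over NM1 WT) of 0.19, with 78 above 0 and 59 below. All tested genes had a median of 0.00. These values are a description, since the rule summed raw counts and each NM1 KO library was deeper. Their fold changes ran from -3.90 to 6.57. Of all 157 members, 8 (5.10%) had higher CPM in each NM1 KO library than in every NM1 WT library, beside 10.8% of all tested genes. The reverse held for 3 members (1.91%), beside 9.75% of all tested genes. Both shares were below those of all tested genes.

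The 2 largest fold changes belonged to the leaders of NM1 KO 3. Ighv1-47 had a log2 fold change of 6.57 (SE 2.04, edgeR adjusted p = 0.147), with 0.522, 0 and 124 CPM in NM1 KO and 1.09, 0 and 0.262 CPM in NM1 WT. Without NM1 KO 3 it no longer had enough counts to be tested. Igkv2-109 had 6.02 (SE 1.75, adjusted p = 0.128), with 0.348, 1.75 and 191 CPM in NM1 KO and 1.09, 0.464 and 1.44 CPM in NM1 WT. Without NM1 KO 3 its log2 fold change was 0.07. Both differences thus came from 1 mouse, and the groups overlapped in the other libraries.

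The leaders of NM1 WT libraries other than Igkv14-126 had negative fold changes. Igkv9-120 had -2.47 (edgeR adjusted p = 0.337), with 9.27, 40.3 and 12.4 CPM in NM1 KO and 335, 6.37 and 3.67 CPM in NM1 WT, and 2.03 without NM1 WT 1. Igkv6-32 had -2.46 (adjusted p = 0.341) and 1.86 without NM1 WT 3. Ighv5-4 had -3.34 (adjusted p = 0.239) and 1.71 without NM1 WT 3. Ighv7-1 had -2.72 (adjusted p = 0.208) and -0.31 without NM1 WT 2. Ighv1-69, high in 1 library of each genotype, had -0.55 (adjusted p = 0.865) and 3.25 without NM1 WT 1. The sign of 4 of these 5 therefore turned with a single mouse. The broadly used Ighv11-2 and Igkv14-126 had 0.59 (adjusted p = 0.472) and 0.30 (adjusted p = 0.681).

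Of the 3 members of smallest p among those higher in NM1 KO, 2 were separated by genotype and all 3 were kappa segments. Igkv5-39 lay at 22.5, 12.9 and 107 CPM in NM1 KO and at 6.38, 4.93 and 5.97 CPM in NM1 WT. Each NM1 KO library was above every NM1 WT library, most of all NM1 KO 3, and the log2 fold change was 3.05 (SE 0.63, edgeR adjusted p = 0.0513). It passed the threshold without NM1 KO 1, without NM1 KO 2 or without NM1 KO 3, where the log2 fold change was 1.62. It did not pass with any NM1 WT library left out. Igkv3-10 lay at 4.96, 2.49 and 57.5 CPM in NM1 KO and 1.09, 0.985 and 2.10 CPM in NM1 WT (log2 fold change 3.96, adjusted p = 0.0917). Igkv3-2 lay at 26.1, 195 and 14.1 CPM against 6.38, 15.0 and 6.82 CPM, with NM1 KO 3 just under NM1 WT 2 (3.06, adjusted p = 0.101).

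The 3 members of smallest p among those lower in NM1 KO were kappa segments too. Igkv8-30 lay at 2.00, 2.86 and 4.41 CPM in NM1 KO and at 12.4, 5.10 and 20.5 CPM in NM1 WT, without overlap (log2 fold change -2.03, SE 0.46, edgeR adjusted p = 0.0719). Its usage share ranged from 0.452% to 0.495% in NM1 KO and from 1.20% to 3.43% in NM1 WT, again without overlap. Igkv8-30 passed the threshold with DESeq2, with no low-count filter, with the replicate block and with NM1 WT 2 left out. Its adjusted p over all alternatives ranged from 9.03e-08 (edgeR with no low-count filter) to 0.254. Without that filter edgeR also called Ighv1-47 and Igkv2-109, whose differences came from NM1 KO 3 alone. Igkv10-94 had 2.35, 3.04 and 3.38 CPM against 18.8, 3.07 and 7.08 CPM (-1.72, adjusted p = 0.145), so that NM1 KO 3 lay above NM1 WT 2. Igkv4-53 had 80.4 CPM in NM1 WT 1 and 0.435 to 4.31 CPM elsewhere (-3.90, adjusted p = 0.160, and -0.09 without NM1 WT 1).

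**Figure D4:**
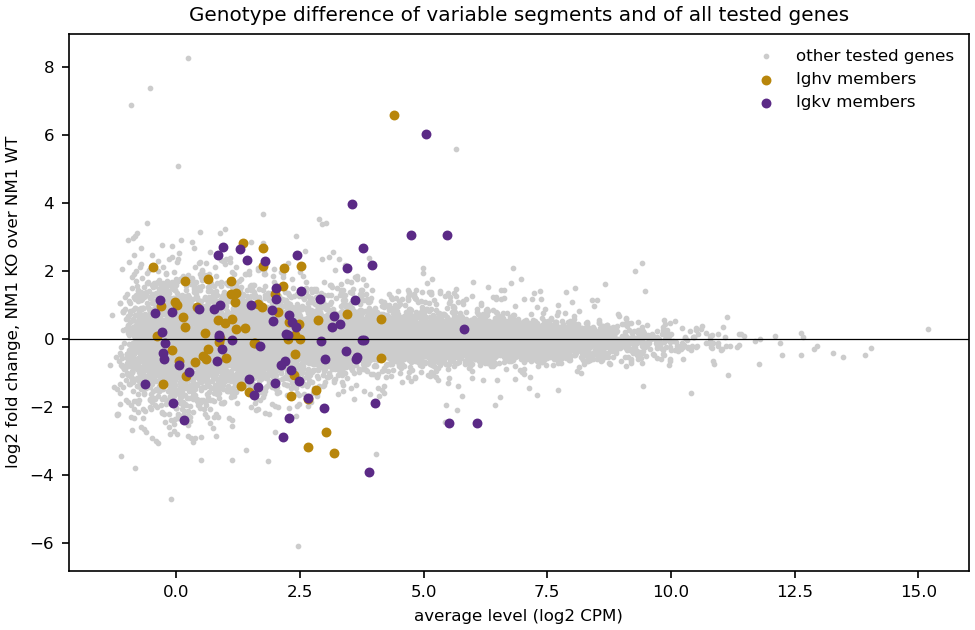
Log2 fold change (NM1 KO over NM1 WT, edgeR) against average level (log2 CPM) for all tested genes in grey, the 63 tested Ighv members in gold and the 74 tested Igkv members in purple. Members spread wider than grey genes of the same level, from -3.90 (Igkv4-53) to 6.57 (Ighv1-47), on both sides of 0, and none passed the threshold.

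The RNAs that make and surround these segments were read from the same fit, and 0 members of any list passed the threshold in either direction. Of the 13 genes of the recombination machinery, all were tested and their median log2 fold change was 0.25, beside 0.00 for all tested genes. Rag1 lay at 43.3, 42.6 and 45.3 CPM in NM1 KO and at 17.4, 31.5 and 13.2 CPM in NM1 WT, without overlap (log2 fold change 1.07, SE 0.26, edgeR adjusted p = 0.0830). Its partner Rag2 lay at 5.71 to 6.18 CPM and 2.17 to 3.48 CPM (1.16, adjusted p = 0.134). The 9 factors known for locus contraction and accessibility had a median of 0.32. Among them the E protein Tcf3 (0.44, adjusted p = 0.113) and the Ets factor Spib (0.46, adjusted p = 0.161) had the smallest p.

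The constant regions are joined to the V segments in the mature RNA. Listed together with Jchain, a separate gene, they had a median of -0.07 over 12 tested of 13 genes. Among heavy chain isotypes, Ighg2b lay at 85.6, 1693 and 1602 CPM in NM1 KO and at 410, 124 and 186 CPM in NM1 WT (log2 fold change 2.23, edgeR adjusted p = 0.175). NM1 KO 1 was below every NM1 WT library and the other NM1 KO libraries above them. Ighg1 had -1.49 (adjusted p = 0.196), Ighg3 1.65 (0.511), Ighg2c -0.08 (0.963), Ighm -0.29 (0.660), Ighd -0.07 (0.915) and Igha -0.24 (0.871), each as log2 fold change and adjusted p. Among the light chains, Igkc had 0.13 (0.871), Iglc1 -0.38 (0.539), Iglc2 -0.01 (0.989) and Iglc3 -0.13 (0.833). Jchain, the joining protein of secreted IgM and IgA, had 0.35 (0.529), and Ighe was not tested, with at most 1.97 CPM.

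None of the cell type markers passed the threshold either. The 14 plasma cell markers summed to 802 to 866 CPM in NM1 KO and to 794 to 845 CPM in NM1 WT. This sum mostly follows abundant genes such as Sec11c (211 to 254 CPM) and Xbp1 (119 to 214 CPM). Prdm1 and Tnfrsf17 did not pass 3.94 and 2.62 CPM, so the sum does not measure plasma cell numbers. The median log2 fold change was -0.07, and Ell2 (0.59, edgeR adjusted p = 0.151) and Slamf7 (0.50, 0.261) had the smallest p. The 13 pro-B and pre-B cell markers summed to 721 to 947 and 686 to 819 CPM (median 0.28), where Rag1 and Rag2 had the smallest p. The 12 mature B cell markers summed to 523 to 755 and 616 to 774 CPM (median -0.01), with Cd37 at -0.52 (adjusted p = 0.185) and Cd55 at 0.36 (0.234). The 12 neutrophil and erythroid markers summed to 96810 to 100454 CPM in NM1 KO and 104447 to 113470 CPM in NM1 WT (median -0.33), without overlap. This sum pools neutrophil and erythroid genes, which did not all go the same way. The neutrophil markers all had negative log2 fold changes, among them the protease gene Prtn3 at -0.57 (edgeR adjusted p = 0.151). Of the erythroid markers, Hbb-bs (0.30) and Alas2 (0.16) were above 0 and Hba-a1 (-0.26) was below. The part of the cell types in the V segment values was not tested. In NM1 KO 3 the Ighv sum was 514 CPM against at most 265 CPM elsewhere. The plasma cell marker sum there (840 CPM) lay between those of NM1 KO 1 and NM1 KO 2. Of the 14 markers, 4 (Irf4, Tnfrsf13b, Mzb1 at 55.1 CPM and Slamf7 at 19.7 CPM) were at their highest of the 6 libraries. For Irf4 (33.6 CPM against 32.6 CPM in NM1 WT 1) and Tnfrsf13b (73.8 CPM against 73.5 CPM in NM1 WT 3) the margin was narrow. The rest were highest in another library, such as Creld2 (64.1 CPM in NM1 KO 3 against 124 CPM in NM1 KO 2) and Sec11c (214 CPM against 254 CPM in NM1 WT 3). Jchain was also highest in NM1 KO 3, at 687 CPM. The constant region and J chain genes, at 11145 CPM in sum, were highest there too.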

How the data were processed

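Whole marrow RNA of 3 NM1 KO and 3 NM1 WT mice was analysed from read counts per Ensembl gene that the authors deposited, 1 library per mouse. The submitters' processing notes name HISAT2 2.0.4, HTSeq, SAMtools 0.1.19, Trimmomatic 0.36 and FastQC, with builds GRCm38 and mm10. Annotation release, strand and counting mode are not given in sources used here, so overlapping genes (1 member, Ighv1-5 with Mir7094-2) cannot be told apart. GENCODE M21 (GRCm38) matched 46091 of 46603 genes and gave names, positions and sequences.

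Counts of all genes were tested with edgeR 4.0.16 (R 4.3.3; filterByExpr, TMM, quasi-likelihood, genotype as the only term), with Benjamini-Hochberg adjustment over all 15069 tested genes and a threshold of 0.05. CPM uses the TMM library sizes. Shares are percentages of member counts per locus, and single values per library were compared by exact permutation of the 20 splits. A count of 0 allows up to 6 counts (3 read pairs). The fit was tested on simulated counts for NM1 KO against NM1 WT over 14658 genes, where 49% of 100 genes with a 2-fold change and 82% of 100 with a 4-fold change were found, and 12 of 143 calls were false. The changed genes were drawn at random from all tested genes. Recovery was not measured for the V segments, which varied more (median CV 91.3% against 36.1% in other genes at 1 to 10 CPM). The V segments and those genes were not chosen by the same count rule.

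Named segments were the 8 Ighv and 8 Igkv of highest mean share, the leaders of each library, the 3 of smallest p in each direction, the 3 of highest ratio of highest to median share (Ighv1-47, Igkv2-109 and Ighv12-3, leaving out 4 members with a median of 0), and those at the count minimum. From each gene list the 2 of smallest p and all constant regions were named. One gene that this rule names is not reported here. Others were named after their values were seen. The members, lists and tests were chosen with earlier results of these data known. Alternatives were RLE scaling, no count filter, counts divided by 2, library sizes without immunoglobulin genes, the Y-linked state as covariate, the replicate block, DESeq2 1.42.0, limma-voom (limma 3.58.1), other thresholds, count minimums, length correction, thinning, and each library left out. The 3 leading segments together and removal of the leading segment were added after seeing the data.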

Additional observations from a re-analysis of the deposited data

How the results depend on the processing

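No member passed adjusted p under 0.05 with edgeR, nor with RLE scaling, library sizes without immunoglobulin genes, counts divided by 2, or limma-voom. The count was 52 of 157 with no low-count filter (30 higher, 22 lower), beside 1138 of all 24358 genes. DESeq2 called 10 of 137, beside 774 of all 15069 genes. It was 5 of 137 with the Y-linked state as covariate, beside 60 of 15069, and 3 of 137 at adjusted p under 0.1, beside 357 of 15069. With a library left out, 0 to 2 members passed, beside 26 to 344 of all tested genes. There was 1 when NM1 KO 1 was left out, and 2 when any of NM1 KO 2, KO 3 and WT 2 was. With the replicate block 5 of 137 passed (Ighv14-2, Igkv3-10, Igkv3-2, Igkv5-39 and Igkv8-30), beside 421 of all 15069 genes. Libraries of the same number correlated at 0.08, 0.12 and 0.06 in their deviations, so the numbers were not taken as pairs, though every library correlated best with its own number. The cause was not tested for any of these.

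The log2 fold change of Ighv1-69 turned from -0.55 to 1.15 with the replicate block, 0.62 with the Y-linked covariate and 0.67 with limma-voom, and that of Igkv9-120 from -2.47 to 0.21 with the replicate block. For the library summaries, pairing leaves the difference as it is by construction, and 3 pairs allow no p under 0.25. With the leading segment removed, the difference in the effective number of Igkv segments (NM1 KO minus NM1 WT) turned from 2.78 to -1.39.

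With 1 library left out, the ranges were -0.46 to 0.43 for the log2 level of Ighv and -0.26 to 0.35 for Igkv, -1.52 to 4.27 for the effective number of Ighv segments and 0.981 to 5.75 for Igkv, -6.25 to -0.577 percentage points for the leading Ighv share and -15.8 to -3.40 for Igkv, -16.3 to 2.10 percentage points for the proximal Ighv share, -0.0161 to 20.7 for the proximal Igkv share and -0.0561 to 0.0841 for the pseudogene share. For log2 fold changes they were -2.08 to 3.25 in Ighv1-69, -4.27 to 1.71 in Ighv5-4, -3.40 to 2.03 in Igkv9-120 and -3.40 to 1.86 in Igkv6-32. The pseudogene share had no value at a minimum of 100 counts. Depth limits the rare segments: with 2988 Ighv counts in NM1 WT 3, a segment at 0 may hold up to 0.201%, by the limit of 3 read pairs.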

Other observations

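The lambda light chain locus, which has few V segments in mice, was read in the same way. Iglv segments (Iglv1, Iglv2 and Iglv3) made up 5.59%, 5.58% and 4.89% of all light chain V counts in NM1 KO 1 to 3 and 4.15%, 13.8% and 5.37% in NM1 WT 1 to 3. NM1 WT 2 stood apart, with an interval of 12.8% to 14.9% against at most 6.24% for the upper end in any other library. Iglv1 was the main lambda segment in every library, at 66.6% to 86.1% of Iglv counts, and was highest in NM1 WT 2.

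The isotype mix also differed from mouse to mouse. Ighm made up 73.8%, 36.1% and 28.6% of heavy chain constant region counts in NM1 KO 1 to 3 and 62.4%, 27.9% and 51.4% in NM1 WT 1 to 3. Igha, the isotype of mucosal antibody, reached 61.9% in NM1 WT 2 and lay between 13.5% and 34.3% elsewhere. The IgG genes together held 36.9% in NM1 KO 2 and 35.8% in NM1 KO 3, above 6.72% in NM1 KO 1 and 7.97% to 19.4% in NM1 WT. The ratio of Igkv to Ighv counts ranged from 1.61 in NM1 WT 2 to 3.34 in NM1 WT 1. These values were looked at after the V segment results were seen, were not tested between the genotypes and are given with no explanation.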
